A study of Mus musculus with 7 samples.

Results

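The genes described here are 9 members of the mouse complement system, namely *C3*, *C4b*, *Cfb*, *C1s1*, *C1ra*, *C2*, *Cd55*, *C3ar1* and *C5ar1*. They were taken by symbol from an expression table of 38026 genes, and each symbol matched 1 row. RNA was sequenced from 7 subcutaneous tumors of mouse pancreatic ductal adenocarcinoma (PDA) cells, taken 2 weeks after inoculation into C57BL/6 mice that received no treatment. All of the cells were line 1242, derived from a KPC mouse tumor, in which engineered alleles, a mutant *Trp53* allele among them, are switched on by Cre recombinase from the *Pdx1* promoter. All carried a lentivirus with Cas9 and a guide RNA, which was a scrambled guide in the 4 sgScramble tumors (replicates 1 to 4) and a guide against *Krt19*, the gene of keratin-19, in the 3 sgKrt19 tumors (replicates 5, 6 and 8). Per the methods the mice were bought at 6 weeks of age and housed for 2 weeks before use. The labels do not say which *Krt19* guide was used, whether the edited cells were a polyclonal line or a single clone, or whether each tumor grew in its own mouse, so p-values measure the spread between these tumors.

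Complement is a cascade of plasma and cell surface proteins that marks targets for uptake and attracts leukocytes. The classical pathway starts when C1q binds, upon which its partner protease C1r activates C1s and C1s cleaves C4 and C2, and the alternative pathway amplifies with factor B; both build enzymes that cleave C3. CD55 (decay-accelerating factor) takes these enzymes apart on host cells, and the fragments C3a and C5a act on myeloid cells through the receptors encoded by *C3ar1* and *C5ar1*. The liver makes most circulating complement, but macrophages, fibroblasts and epithelial cells in tissues make components as well. The values below are from whole tumors, in which fewer cells of a type and less RNA per cell cannot be told apart.

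The promoter of *C3* is shown because *C3* was the member with the largest change, and that of *C1s1* because it was the only other member promoter with a match to the motif marked here. The sequences are the 250 bases before the annotated start in RefSeq (GRCm38.p6), at chr17:57228137-57228386 for *C3* and chr6:124542360-124542609 for *C1s1*, both on the minus strand and written 5′ to 3′. Capitals mark a match to the C/EBP motif TTGCNNAA on either strand, a motif that was added to the search after the *C3* sequence had been seen.
*C3*: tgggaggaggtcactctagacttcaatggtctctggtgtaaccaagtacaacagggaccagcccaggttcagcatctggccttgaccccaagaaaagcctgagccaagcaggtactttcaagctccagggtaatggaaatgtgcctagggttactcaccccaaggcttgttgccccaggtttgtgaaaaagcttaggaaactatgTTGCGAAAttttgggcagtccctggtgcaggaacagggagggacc
*C1s1*: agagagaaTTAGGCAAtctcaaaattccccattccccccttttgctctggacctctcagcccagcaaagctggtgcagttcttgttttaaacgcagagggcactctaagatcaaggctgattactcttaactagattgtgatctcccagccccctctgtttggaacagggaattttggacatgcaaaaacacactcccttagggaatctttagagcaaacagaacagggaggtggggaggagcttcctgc
The match lay 45 to 38 bases before the start of *C3* and 242 to 235 bases before 1 of the 2 annotated starts of *C1s1*, and the promoter of the other start held none. Of 32851 promoters of the same length, 9.56% held this motif. The table had promoters for 6 of the 9 members (*C3*, *C1s1*, *C1ra*, *Cd55*, *C3ar1* and *C5ar1*). None of the 6 held the gamma interferon activation site TTCNNNGAA (in 7.02% of all promoters), the interferon-stimulated response element GAAANNGAAA (2.98%) or the NF-kB consensus (3.90%) on either strand.

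The libraries held 40781199 to 44972100 reads assigned to genes, and 3 reads in a library corresponded to a normalized read count of 2.74 to 3.47. *Krt19* had 17841 to 27618 normalized reads in sgScramble tumors and 1606 to 2470 in sgKrt19 tumors, a difference of −3.52 ± 0.18 (SE) in log2. Marker genes of other cells moved between the groups as well. Of 8 general leukocyte markers 8 were higher in sgKrt19 tumors (summed count 10839 to 14957 against 19182 to 25996), as were 6 of 7 neutrophil markers (832 to 1837 against 5430 to 5905), with the granule and lineage genes *Ly6g*, *Ngp* and *Camp* near 0 in both groups. Most of the neutrophil sum in sgKrt19 tumors was *Ltf*, at 33.4 to 448 in sgScramble tumors and 3300.5 to 3673.5 in sgKrt19 tumors. Its log2 fold change was 4.64, beside a median of 1.32 over the 7 neutrophil markers. Macrophage markers overlapped (25858 to 35619 against 30962 to 47505, 1 higher and 1 lower of 10), and no fibroblast marker of 11 changed (101917 to 236154 against 117838 to 133470). Endothelial markers rose in 4 of 8 (3801 to 5573 against 5837 to 7016). Epithelial markers rose in 6 of 10 (135923 to 188333 against 286346 to 294113). Most of this sum was *Krt8* and *Krt18*. *Ocln* (log2 fold change 0.80), *Epcam* (0.06), *Krt7* (−1.03) and *Cldn4* (−1.23) were not called. Hepatocyte markers fell in 4 of 6 (3040 to 4978 against 1196 to 1536, with *Tat* at no more than 3 reads in every library). Most of this sum was *Ttr* and *Apob*. *Alb* was at 35.6 to 134 against 3.47 to 5.0, *Fgb* was at 0 to 7.43 over all libraries, and *Apoa1* and *Cyp2e1* were not called. Skeletal muscle markers rose in 10 of 10, from 99.4 to 115 in 3 sgScramble tumors and 2559 in sgScramble 3 to 20807 to 30065. The part of these markers in the results below was not tested.

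In sgKrt19 tumors *C3* was 2.52-fold lower, while *C4b*, *C2*, *Cfb* and *C1s1* were 1.94-, 1.99-, 1.81- and 1.38-fold higher. *C1ra*, *Cd55*, *C3ar1* and *C5ar1* did not pass the test. All 9 members passed the filter on low values, and 5 (55.6%) were called by limma at an adjusted p under 0.05, against 34.0% of the 21322 genes tested. Those 5 were 4 higher (17.9% of all genes tested) and 1 lower (16.0%). edgeR on the recovered reads called the same number of members and 33.7% of all genes. The sgKrt19 libraries did not overlap the sgScramble libraries for 7 of the 9, which was the case for 41.1% of all genes tested. Of the 7, 5 were higher (21.7% of all genes tested) and 2 lower (19.3%). The median log2 fold change of the 9 was 0.39, beside 0.0072 over all genes tested.

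**Figure D1:**
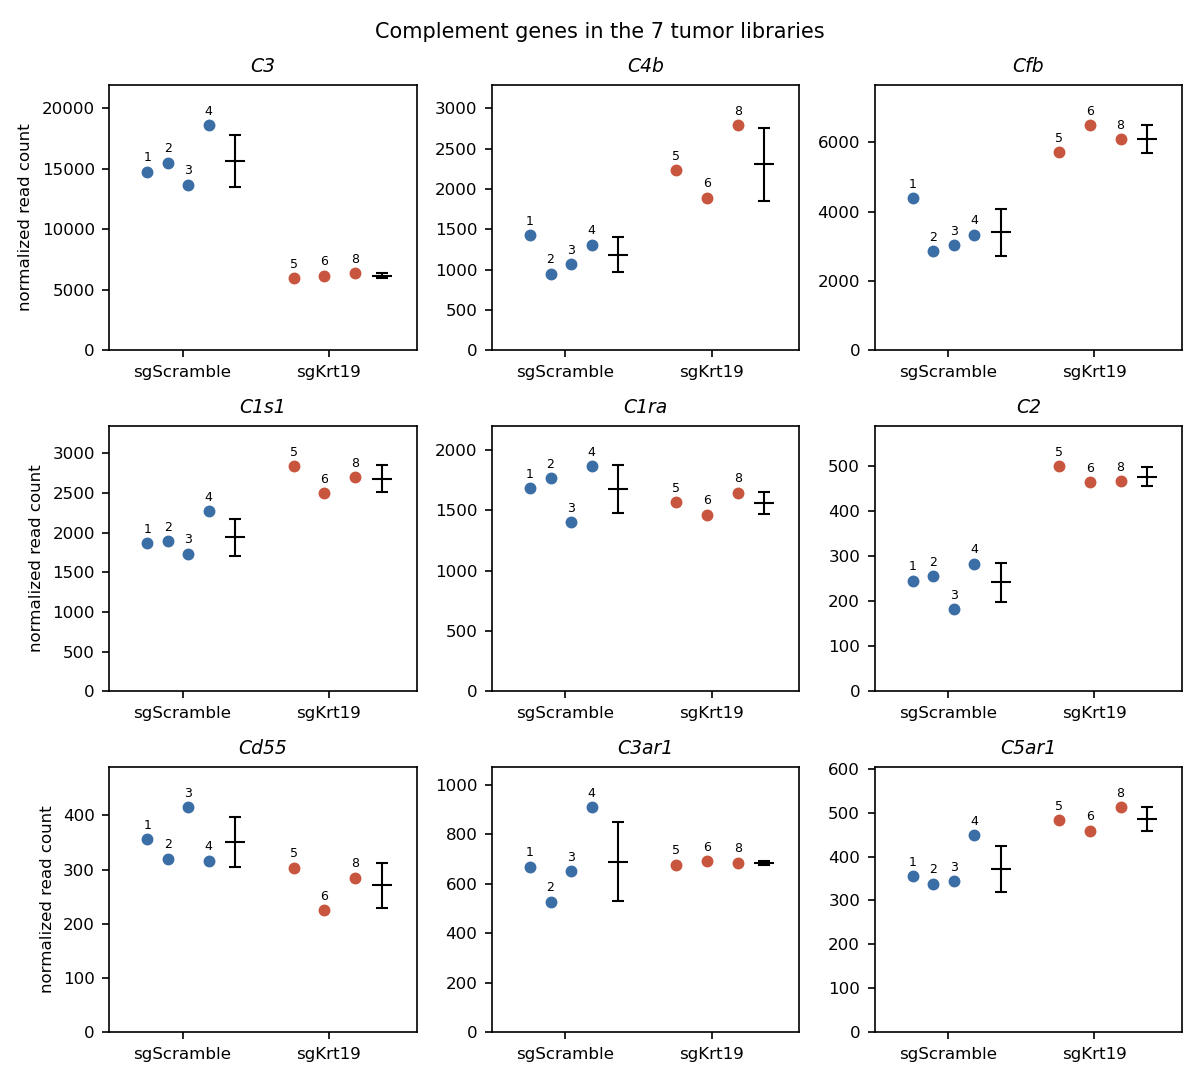
Normalized read count (vertical axis, from 0) of each of the 9 genes in the 4 sgScramble (blue) and 3 sgKrt19 (red) tumors, with points numbered by replicate and black bars giving the mean ± SD. *C3* sits between 5954 and 6394 in sgKrt19 tumors, below all sgScramble tumors, *C4b*, *Cfb*, *C2* and *C1s1* sit above all of them, and *C1ra* and *C3ar1* overlap.

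*C3* encodes the central component on which all pathways converge (ENSMUSG00000024164.15, chr17:57203970-57228136, minus strand). It measured 14745, 15478, 13682 and 18596 normalized reads in sgScramble tumors 1 to 4 and 5954, 6150 and 6394 in sgKrt19 tumors 5, 6 and 8. The groups were far apart, and the sgKrt19 tumors lay close together, with a coefficient of variation of 3.58% against 13.5% in sgScramble tumors. The means were 15625 ± 2113 (SD, n = 4) and 6166 ± 221 (SD, n = 3), so that sgKrt19 minus sgScramble came to −1.33 ± 0.13 (SE) on the log2 scale (limma adjusted p = 8.76e-05). Of all genes tested, 4.26% had a lower log2 fold change than *C3*. The gene was called in each of the 16 alternative fits, at −1.55 to −1.25. It fell while 4 of 6 hepatocyte markers fell and 6 of 10 epithelial markers rose, as given above, and their part in its change was not tested.

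*C4b*, the mouse C4 gene, supplies the classical and lectin pathways with the subunit that anchors their C3-cleaving enzyme (ENSMUSG00000073418.4, chr17:34728380-34743882, minus strand). It measured 1423, 948, 1065 and 1310 in sgScramble tumors and 2233, 1891 and 2790 in sgKrt19 tumors. The lowest sgKrt19 tumor was above the highest sgScramble tumor, although the sgKrt19 tumors themselves varied most for this member (coefficient of variation 19.7%). The means were 1186 ± 218 (SD, n = 4) and 2305 ± 454 (SD, n = 3), and the fitted difference was 0.96 ± 0.17 (SE) in log2 (limma adjusted p = 0.00256). Its near-identical neighbor *C4a* held 26.0% to 28.7% of the *C4b* value in every library, so how reads were divided between the pair is uncertain.

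*C2* encodes the protease subunit of the same enzyme (ENSMUSG00000024371.14, chr17:34862604-34898265, minus strand). Its values were 246, 256, 183 and 284 in sgScramble tumors and 501, 464 and 466 in sgKrt19 tumors. No sgScramble tumor came near the sgKrt19 tumors. The means were 242 ± 42.7 (SD, n = 4) and 477 ± 20.5 (SD, n = 3), and the fitted difference was 0.99 ± 0.16 (SE) in log2 (limma adjusted p = 0.00166).

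*Cfb* encodes factor B, the counterpart of C2 in the alternative pathway (ENSMUSG00000090231.10, chr17:34856374-34862518, minus strand). It measured 4382, 2860, 3031 and 3329 in sgScramble tumors and 5702, 6490 and 6084 in sgKrt19 tumors. The groups did not overlap, and sgScramble 1 was above the other sgScramble tumors, as it was for *C4b*. The means were 3401 ± 682 (SD, n = 4) and 6092 ± 394 (SD, n = 3), and the fitted difference was 0.86 ± 0.15 (SE) in log2 (limma adjusted p = 0.002). *Cfb* and *C2* are adjacent, and the annotated gene *Gm20547* spans both on the same strand, sharing 79.5% of the exon bases of *Cfb* and 42.8% of those of *C2*. Its value was 101.9% to 103.7% of that of *Cfb* in every library, so reads were counted at both, and how far the *C2* value holds such reads is uncertain.

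The 3 called genes *C4b*, *Cfb* and *C2* lie together on chromosome 17 in the major histocompatibility complex, between bases 34728380 and 34898265, and *C3* lies elsewhere on that chromosome. Genes of this region are known to respond to interferon gamma. Of 12 genes of the interferon gamma response, summarized beside them, 11 rose, from a summed count of 23985 to 41316 to one of 91395 to 122874. Their part in the change of *C4b*, *Cfb* and *C2* was not tested.

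*C1s1* encodes the protease C1s (ENSMUSG00000038521.17, chr6:124530345-124542359, minus strand). It measured 1870, 1892, 1733 and 2268 in sgScramble tumors and 2838, 2498 and 2697 in sgKrt19 tumors. The groups did not overlap, with sgScramble 4 closest to the sgKrt19 tumors. The means were 1941 ± 229.6 (SD, n = 4) and 2678 ± 171 (SD, n = 3), and the fitted difference was 0.47 ± 0.12 (SE) in log2 (limma adjusted p = 0.0127). When libraries were scaled by total reads alone, which put the median of all genes at −0.21, it was 0.25 and lost its call (adjusted p = 0.140). The antisense gene *Gm16567* overlaps 18.4% of its exon bases and also rose, by 0.48 on the log2 scale (limma adjusted p = 0.0166), and reads from the pair may not be told apart.

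*C1ra* encodes C1r, the protease that activates C1s, and lies next to *C1s1* (ENSMUSG00000055172.10, chr6:124512405-124523443, plus strand). It measured 1682, 1767, 1401 and 1867 in sgScramble tumors and 1568, 1465 and 1646 in sgKrt19 tumors. All sgKrt19 values fell inside the range of the sgScramble tumors. The means were 1679 ± 200.2 (SD, n = 4) and 1559 ± 90.5 (SD, n = 3), and the log2 fold change of −0.10 had a 95% confidence interval of −0.37 to 0.17 (limma adjusted p = 0.539). The copy *C1rb* held 40.4% to 45.0% of the *C1ra* value, and *C1s2* held 9.61% to 13.5% of that of *C1s1*. On the log2 scale *C1s1* exceeded *C1ra* by 0.21 ± 0.0999 (SD, n = 4) in sgScramble tumors and by 0.78 ± 0.0723 (SD, n = 3) in sgKrt19 tumors. The groups did not overlap in this difference, whose exact permutation p of 0.0286 is the smallest that 35 splits of 7 libraries allow and became 0.0857 after adjustment over the 9 such differences examined.

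*Cd55* encodes the regulator CD55 (ENSMUSG00000026399.12, chr1:130439027-130462744, minus strand). It measured 356, 320.1, 416 and 316 in sgScramble tumors and 304, 225 and 286 in sgKrt19 tumors. The sgKrt19 tumors lay below the sgScramble tumors with a small gap. The means were 352 ± 46.0 (SD, n = 4) and 272 ± 41.3 (SD, n = 3), and the log2 fold change of −0.38 (95% confidence interval −0.73 to −0.018) missed the threshold (limma adjusted p = 0.0943). Scaled by total reads alone it was −0.59 and was called (adjusted p = 0.0151). The log2 level of *Cd55* relative to *C3* was −5.47 ± 0.35 (SD, n = 4) in sgScramble tumors and −4.51 ± 0.24 (SD, n = 3) in sgKrt19 tumors (exact permutation p = 0.0571, 0.0857 after adjustment).

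*C3ar1* encodes the C3a receptor (ENSMUSG00000040552.8, chr6:122847138-122856161, minus strand). It measured 669, 528, 651 and 910 in sgScramble tumors and 676, 690.1 and 686 in sgKrt19 tumors. The sgKrt19 values were nearly equal, with a coefficient of variation of 1.03%, and lay within the wider range of the sgScramble tumors (23.2%). The log2 fold change was 0.02 with a 95% confidence interval of −0.36 to 0.39 (limma adjusted p = 0.948), and it changed sign in 5 of the 16 alternative fits, in none of which it was called. Relative to the mean log2 level of the 10 macrophage markers, *C3ar1* differed by 0.0059 between the groups (exact permutation p = 0.943).

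*C5ar1* encodes the C5a receptor, which attracts neutrophils and monocytes (ENSMUSG00000049130.6, chr7:16246743-16259540, minus strand). It measured 356, 338, 343 and 449 in sgScramble tumors and 483, 459 and 512 in sgKrt19 tumors. All sgKrt19 tumors were above all sgScramble tumors, sgScramble 4 only just below them. The means were 371 ± 52.1 (SD, n = 4) and 485 ± 26.7 (SD, n = 3), and the log2 fold change of 0.39 (95% confidence interval 0.082 to 0.70) missed the threshold (limma adjusted p = 0.0522). It was called without sgScramble 4 (0.49, adjusted p = 0.0283), by DESeq2 (adjusted p = 0.0412) and with a filter at 50 (adjusted p = 0.0470).

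The receptor was set against markers of the cells that carry it. Relative to the macrophage score, *C5ar1* was at −1.61 ± 0.081 (SD, n = 4) in sgScramble tumors and −1.23 ± 0.11 (SD, n = 3) in sgKrt19 tumors on the log2 scale. Relative to the neutrophil score, it was at 1.96 ± 0.53 (SD, n = 4) and 0.67 ± 0.13 (SD, n = 3). The first difference lay higher and the second lower in all sgKrt19 tumors than in all sgScramble tumors (exact permutation p = 0.0286 for each, 0.0857 after adjustment). The neutrophil score included *Ltf*, which had the largest log2 fold change of its markers (4.64). With the median of the markers in place of their mean, *C5ar1* relative to neutrophil markers differed by −1.06 in place of −1.28. A score without *Ltf* was not tested. Relative to the fibroblast score, *C4b* differed by 1.07 and *C1s1* by 0.58 (exact permutation p = 0.0571 for each, 0.0857 after adjustment), and *C1ra* by 0.014 (p = 0.886). *Cfb* relative to *C2* differed by −0.13 (exact permutation p = 0.486). None of the 9 differences passed the adjustment.

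Levels of different genes were compared as normalized reads per kb of exon. In sgScramble tumors the order was *C3* (3038 ± 411, SD, n = 4), *Cfb* (1204 ± 242), *C1s1* (620 ± 73.4), *C1ra* (563 ± 67.2), *C4b* (208 ± 38.3), *C3ar1* (160.1 ± 37.1), *C5ar1* (145 ± 20.3), *Cd55* (72.5 ± 9.48) and *C2* (62.5 ± 11.0). The neighbors *C1s1* and *C1ra*, *C4b* and *C3ar1*, *C3ar1* and *C5ar1*, and *Cd55* and *C2* overlapped between libraries. In sgKrt19 tumors *Cfb* stood first (2156 ± 139.6, SD, n = 3), then *C3* (1199 ± 43.0), *C1s1* (856 ± 54.5), *C1ra* (523 ± 30.3), *C4b* (405 ± 79.7), *C5ar1* (189 ± 10.4), *C3ar1* (159 ± 1.64), *C2* (123 ± 5.28) and *Cd55* (56.0 ± 8.52). No neighbors in this second order overlapped. *C3* and *Cfb* thus changed places at the top. The means of *C3ar1* and *C5ar1*, and those of *C2* and *Cd55*, were also in the other order, but each of these pairs overlapped in sgScramble tumors.

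**Figure D2:**
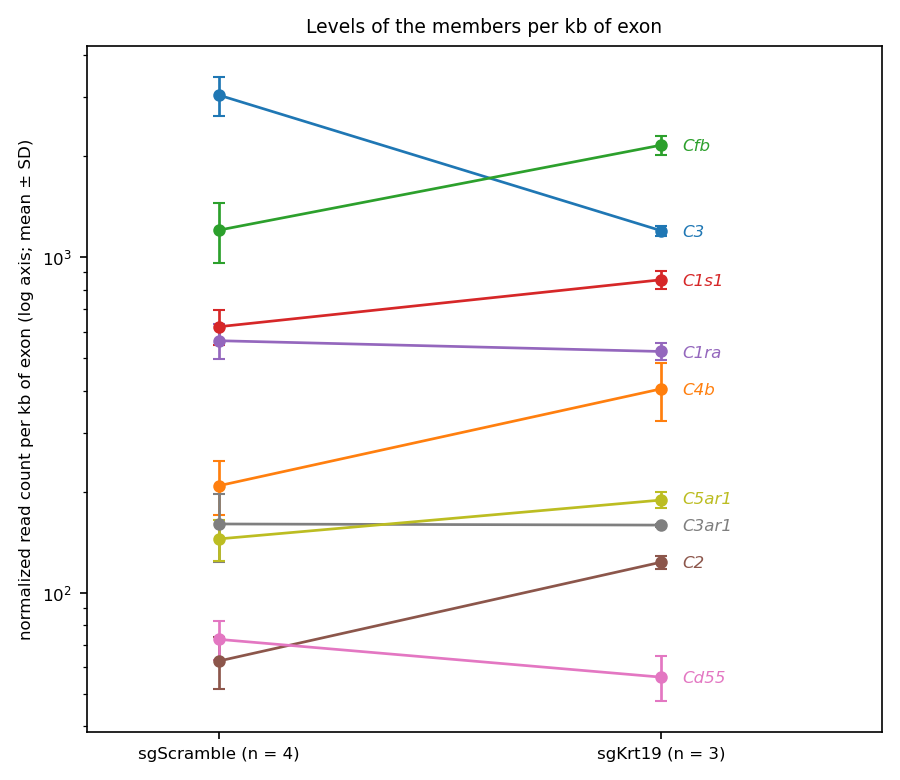
Mean normalized read count per kb of exon ± SD (vertical log axis) of the 9 genes in sgScramble (n = 4) and sgKrt19 (n = 3) tumors, joined by lines. The lines of *C3* and *Cfb* cross, from 3038 and 1204 to 1199 and 2156.

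The make-up of the 9 genes shifted in every tumor, a description chosen after the values were seen and not tested. *C3* held 45.8% to 52.4% of the sum per kb in sgScramble tumors and 20.9% to 21.3% in sgKrt19 tumors. *Cfb* held 17.1% to 24.8% and 36.4% to 40.9%, and *C4b* 3.42 ± 0.46% (SD, n = 4) and 7.13 ± 1.24% (SD, n = 3). The sum itself overlapped, at 5362 to 6900 and 5538 to 5839. The ratio of *C3* to *Cfb* per kb was 1.85, 2.97, 2.48 and 3.07 in sgScramble tumors and 0.574, 0.521 and 0.577 in sgKrt19 tumors. That of *C4b* to *C2*, the pair of the classical enzyme, overlapped at 2.52 to 3.96 and 2.77 to 4.07.

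**Figure D3:**
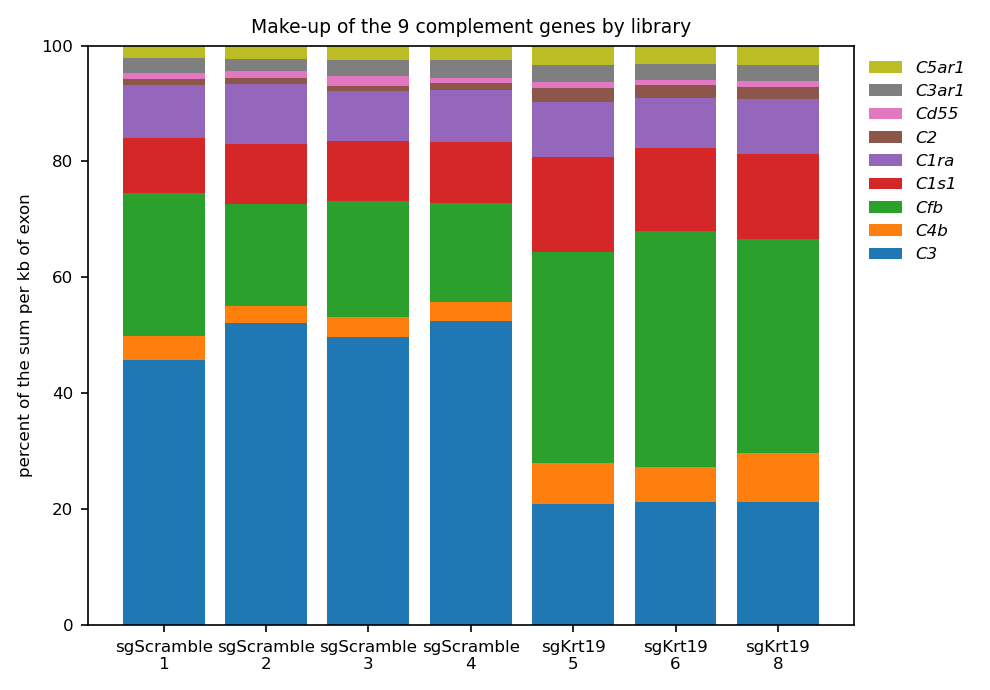
Share of each of the 9 genes in their sum of normalized reads per kb of exon (vertical axis, percent) in each of the 7 tumors. *C3* fills 45.8% to 52.4% of the sgScramble bars and 20.9% to 21.3% of the sgKrt19 bars, and *Cfb* is the largest part of the sgKrt19 bars.

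Within sgScramble tumors the members did not vary as one. Tumor 4 was highest for 6 of the 9 (*C3*, *C1s1*, *C1ra*, *C2*, *C3ar1* and *C5ar1*), tumor 1 for *C4b* and *Cfb*, and tumor 3 for *Cd55*. Among sgKrt19 tumors, tumor 6 was lowest for 6 members. Over the 7 libraries the members most alike were *C1s1* and *C5ar1*, with a root mean square difference of 0.0739 between their log2 values after each was centered, and the next pair was *C4b* and *Cfb* at 0.201. This measure takes in the difference between the groups as well as the variation within them. The log2 fold changes of *C1s1* and *C5ar1* were 0.47 and 0.39.

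By the same measure, the genes outside the 9 most like each member over the 7 libraries were found, as a description. For *C4b* the nearest was its copy *C4a* (0.0449) and for *C1ra* its copy *C1rb* (0.0522), and the second nearest were *Dhx58os* (0.111) and *Tgs1* (0.0644). *C3* was nearest to *Dnmt3a* (0.0742) and *Dnal1* (0.0748). *Cfb* was nearest to *Pstpip1* (0.0919) and *Stk39* (0.0999), and *C2* to *Havcr2* (0.0900) and *Enpp4* (0.133). *C1s1* was nearest to *Gpr146* (0.0828) and *Polr3g* (0.0848), and *Cd55* to *Fibp* (0.0659) and *Hsd3b7* (0.0673). The receptor *C3ar1* was nearest to *Cntln* (0.0486) and *Cd248* (0.0694), and *C5ar1* to *Fermt3* (0.0664), which encodes an integrin adaptor of blood cells, and *Rasa4* (0.0804).

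Of 44 other complement genes listed by role, 40 had a row, 32 passed the filter on low values and 16 were called by limma, 11 higher and 5 lower, which is 50% beside 34.0% of all genes tested. Their median log2 fold change was 0.25. The count was 9 (28.1%) without sgKrt19 6, where 29.0% of all genes tested were called, 9 without sgScramble 2, where 23.1% were, and 10 (31.2%) without sgKrt19 5, where 23.6% were. Scaled by total reads alone it was 11 (34.4%), beside 37.1% of all genes. In a test for a fold change above 1.5 it was 1 (3.1%), beside 6.27% of all genes. The share of these genes called was thus not above that of all genes in every fit.

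**Figure D4:**
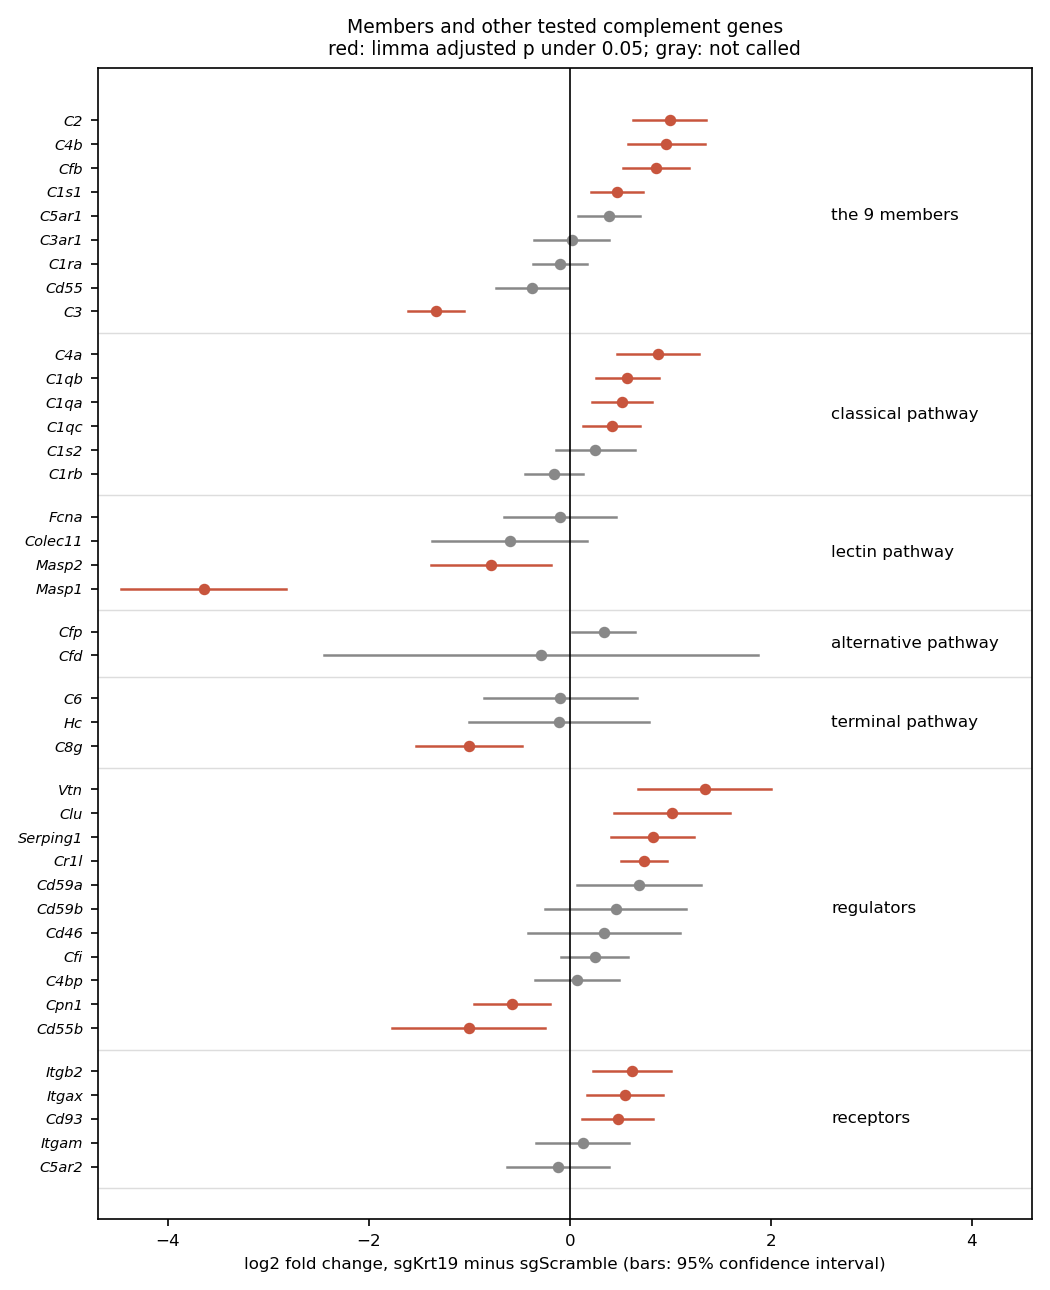
Log2 fold change, sgKrt19 minus sgScramble (horizontal axis), with 95% confidence intervals, of the 9 members and of other complement genes tested, grouped by role; red marks a limma adjusted p under 0.05. *Masp1* lies farthest to the left at −3.64, and *C4a*, *C1qa*, *C1qb* and *C1qc* of the classical pathway lie to the right of 0.

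Of the 6 genes at the start of the classical pathway 4 rose and none fell. The C1q chains *C1qa*, *C1qb* and *C1qc* rose by 0.52, 0.57 and 0.42 on the log2 scale (limma adjusted p = 0.0146, 0.0121 and 0.0305), and *C4a* by 0.88 (0.00558). *C1qa* lost its call without sgKrt19 5 (adjusted p = 0.0546) and *C1qc* without any of sgKrt19 5, sgKrt19 6, sgScramble 2 and sgScramble 3 (0.0633 to 0.103). Scaled by total reads alone, the C1q chains were at 0.20 to 0.36 and none was called. *C1rb* (−0.16) and *C1s2* (0.25) did not pass. The C1q genes are expressed by macrophages, whose markers overlapped between the groups as given above. The part of these markers in the change of the C1q genes was not tested.

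Of the 4 lectin pathway genes tested, 2 fell. *Masp1*, which encodes a protease of the mannose-binding lectin complex, measured 419, 716, 366 and 545 in sgScramble tumors and 68.2, 42.0 and 19.95 in sgKrt19 tumors. Its log2 fold change of −3.64 ± 0.37 (SE) was the largest of the complement genes tested (limma adjusted p = 0.00013), and it was called in each of the 16 alternative fits. *Masp2* fell by 0.78 (adjusted p = 0.0461), but lost its call without any 1 of 5 libraries (sgKrt19 5 and 6, sgScramble 2, 3 and 4, at adjusted p = 0.0724 to 0.176), and 54.9% of its exon bases overlap *Tardbp* on the other strand. Neither alternative pathway gene was called, with *Cfp*, the properdin gene, at 0.34 (adjusted p = 0.0870) and *Cfd*, the factor D gene, at −0.29 (0.839). Of the 3 terminal pathway genes tested *C8g* fell by 1.0 (adjusted p = 0.0102), and *C6* and *Hc*, which encodes C5, were not called.

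Of the 12 regulators tested 4 rose and 2 fell. *Clu*, the clusterin gene, measured 211662 to 286556 in sgScramble tumors and 415523 to 619854 in sgKrt19 tumors, a rise of 1.02 ± 0.26 (SE) in log2 (limma adjusted p = 0.0140; 0.0521 without sgScramble 2). *Serping1*, which encodes the C1 inhibitor, rose by 0.82 (0.00844), *Cr1l*, which encodes the membrane regulator Crry, by 0.74 (0.000671) and *Vtn*, the vitronectin gene, by 1.34 (0.00769). *Cpn1*, a carboxypeptidase N gene, fell by 0.58 (0.0259), a call that was lost without sgKrt19 6, sgKrt19 8 or sgScramble 3 (0.0572 to 0.0841). *Cd55b*, the copy of *Cd55*, fell by 1.01 (0.0451) from 17.4 to 28.8 normalized reads to 8.09 to 15.8, and the call was lost without any 1 of 5 libraries (sgKrt19 5 and 6, sgScramble 1, 2 and 4, at 0.0639 to 0.138). *Cfi* (0.25), *Cd59a* (0.69), *Cd59b* (0.46), *Cd46* (0.34) and *C4bp* (0.07) were among those that did not pass.

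Of the 5 other receptor genes tested 3 rose and none fell. The integrin subunits *Itgax* and *Itgb2* of complement receptors rose by 0.55 and 0.62 on the log2 scale (limma adjusted p = 0.0330 and 0.0219), with groups that overlapped, and *Cd93* rose by 0.48 (0.0408). Each call was lost without any 1 of several libraries: *Itgax* without sgKrt19 6 or sgScramble 1, 2 or 3 (0.0626 to 0.117), *Itgb2* without sgKrt19 5, sgKrt19 6 or sgScramble 2 (0.0598 to 0.0795), and *Cd93* without any of the 3 sgKrt19 tumors or sgScramble 1, 2 or 3 (0.0525 to 0.107). Scaled by total reads alone, the 3 were at 0.26 to 0.40 and were not called. *Itgam* (0.13), of which 68.7% of the exon bases are shared with *Gm49368*, and *C5ar2* (−0.12) did not pass. General leukocyte markers rose beside these genes, as did endothelial markers, a cell type that also expresses *Cd93*, with the sums given above, and their part was not tested.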

How the data were processed

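RNA of 7 tumors was sequenced as single reads of 76 bases. Per the methods libraries were made with a stranded total RNA kit (the labels say polyA RNA). The authors deposited 1 table whose values are a signal: reads per gene divided by a size factor per library. The genome build mm10 is from the submitters' processing notes, and the aligner, counter, annotation and use of strand are not given in the sources used here. Whole reads were recovered for 100% of values (tolerance 0.05 read).

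Values were tested as log2(value + 1) with limma 3.58.1 (lmFit, eBayes with trend, two-sided, R 4.3.3) over genes that reached a value of 10 in 3 or more libraries, with Benjamini-Hochberg adjustment over all genes tested and calls under 0.05. Fold changes understate those of low genes. Single differences used an exact two-sided permutation test. Scores are means of log2(value + 1) over marker genes with a mean value of at least 10. Positions and exon lengths are from GENCODE M21 (GRCm38), which held 97.6% of the identifiers. The fit was tested on simulated data. Alternatives included edgeR 4.0.16 and DESeq2 1.42.0 on the recovered reads. The naming rule covered the members, *Krt19*, other complement genes that were called, and the 2 genes most like each member in pattern; other complement genes that were not called, and single markers, were named after their values were seen. The members and lists were chosen with earlier results of these data known. No batch is given in the labels. *Mbl1*, *Mbl2*, *Colec10* and *C8b* were not analysed here. Some items are not reported here.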

Additional observations from a re-analysis of the deposited data

Results flagged for a closer look

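In each of 3 results, 1 of the 4 sgScramble tumors stood apart, its gap to the nearest other tumor taking a share of the group's range above the 95% critical value of Dixon's test. The share was 0.905 for *Itgax* (sgScramble 4, 1207 normalized reads), 0.952 for the skeletal muscle score (sgScramble 3, at 7.46 on the log2 scale) and 0.859 for the interferon gamma response score (sgScramble 3, at 10.3). Of 61 results searched these were 4.92%, and chance alone marks about 1 in 20. None of the 9 complement members was among them.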

How the results depend on the processing

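The study describes the control and edited cells of its sequenced tumors as paired. No paired analysis was possible, because the labels name no pairs and the groups share no replicate number. Of 16 alternative fits, *C3* was called in 16, *C4b*, *Cfb* and *C2* in 15, *C1s1* in 14, *C5ar1* in 3, *Cd55* in 1, and *C1ra* and *C3ar1* in none. In the test for a fold change above 1.5, 1336 of all genes were called (6.27%, 7240 before). It called 1 of the 9 members and 1 of the 32 other complement genes (3.1%). In that test *C4b* (0.96), *Cfb* (0.86), *C1s1* (0.47) and *C2* (0.99) lost their calls (adjusted p = 0.253, 0.369, 1 and 0.169). Scaling by total reads alone moved the median of all genes to −0.21 and the share of calls that were higher from 52.8% to 27.5%; *C1s1* was then at 0.25 (not called), *Cd55* at −0.59 (called) and *C3ar1* at −0.20. *C3ar1* was at −0.021 by DESeq2, −0.025 by edgeR and −0.10 to 0.16 with each library left out. *C5ar1* was called by DESeq2 (0.37), with a filter at 50 (0.39) and without sgScramble 4 (0.35 to 0.49 over libraries left out). Other complement genes called numbered 9 to 16 of 32 (28.1% to 50%) with a library left out, and members 5 to 6 of 9. In the same fits 23.1% to 36.4% of all genes tested were called. *C3ar1* relative to macrophage markers was −0.014 with a pseudocount of 10, −0.097 with medians and −0.034 to 0.063 with a library left out; *C1ra* relative to fibroblast markers was −0.11 to 0.14 with a library left out and 0.18 with medians. *Cd55b* and *Vtn* could not be fitted with a filter at 50. The cause of these changes was not tested. With 7 libraries no adjusted permutation p reached 0.05, which says nothing about stability. Depth limited the members little, whose lowest value in any library was 183 for *C2*.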

Other observations

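Several complement genes made little RNA in these tumors. Of the pore-forming components, *C8a* had no read in any library, and *C7* and *C9* were at 0 to 7.43 normalized reads. *Fcnb*, which encodes a ficolin, had 1 read in 1 library (sgScramble 1) and none in the others. The complement receptor gene *Cr2*, a marker of B cells, was at 0 to 12.8 in sgScramble tumors and 0 to 1.0 in sgKrt19 tumors, and *Vsig4*, a macrophage receptor for C3 fragments, was at 0.927 to 13.9 and 1.0 to 3.15; neither passed the filter on low values, so neither was tested.

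*Cfd*, which encodes factor D and is expressed strongly by fat cells, varied most between tumors of 1 group among the complement genes tested. It measured 879, 80.03, 45.7 and 591 in sgScramble tumors and 150.3, 77.0 and 435 in sgKrt19 tumors. The groups overlapped, with the highest and the lowest value both in sgScramble tumors. The summed count of the adipocyte markers was 1261 to 3000.2 in sgScramble tumors and 2704 to 4004 in sgKrt19 tumors. Of these markers, *Adipoq* measured 157, 9.88, 9.13 and 73.3 in sgScramble tumors and 11.6, 12.0 and 68.3 in sgKrt19 tumors, and *Plin1* 39.9, 3.95, 2.74 and 43.6, and 6.94, 4.0 and 13.7. Both were highest in sgScramble 1 and 4 and, among sgKrt19 tumors, in tumor 8, as was *Cfd*. *Lep* and *Retn*, at 0 to 36.2, had the same pattern. *Cidec*, *Fabp4* and *Lipe*, which made up most of the summed count, did not have it in both groups. *Fabp4* had it in sgScramble tumors (1610, 346, 561 and 862) but not in sgKrt19 tumors (1933, 1083 and 1858). *Lipe* had it in sgKrt19 tumors (914, 958 and 1550) but not in sgScramble tumors (549, 569, 535 and 565). *Cidec* had it in neither group, at 587, 324, 490 and 389 in sgScramble tumors and 597, 644 and 489 in sgKrt19 tumors. The part of the adipocyte markers in the spread of *Cfd* was not tested. *Cfi*, which encodes factor I, stood at 4758 normalized reads per kb of exon in sgScramble tumors and 5691 in sgKrt19 tumors, above every one of the 9 members in both groups. The same held for *Clu* (74590 and 152058), *C1qa* (5361 and 7682) and *C1qb* (4411 and 6535).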
